A study of Homo sapiens with 6 samples.

Results

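The 41 interferon-stimulated genes described here are genes that cells switch on after they sense type I interferon, together with the STAT and IRF factors that act on them. They were chosen by name: a gene of the RNA-seq comparison counted as a member when its symbol stood in a list of 41 names, and all 41 were found among the 28395 genes. A375 cells, a human melanoma line, were cultured for 6 h with 0.01% ozonated olive oil (OZO) or, as the control, with 0.01% olive oil (OLO). There were 3 libraries in each group, 1 cell line, 1 dose and 1 time. The paper describes no genetic modification of the cells. Both groups received an oil, so that a difference is one between the ozonated and the plain oil. No untreated cells and no cells given interferon were analysed here. The labels number the libraries of a group without saying whether they came from separate cultures, the paper describes independent experiments, and the p-values measure the spread between these libraries.

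Type I interferons bind the receptor chains IFNAR1 and IFNAR2, whose kinases JAK1 and TYK2 then phosphorylate STAT proteins. STAT2 and IRF9 act in the complex ISGF3, which binds the interferon-stimulated response element (ISRE) in target promoters. The products of the target genes sense viral RNA, block its translation, degrade it, trap virions or feed back on the pathway, and many of the genes hold a basal level in tumour cells without added interferon.

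The data are a comparison per gene, not values per library. Each gene has a log2 fold change (OZO minus OLO, so positive is higher in OZO), limma's moderated t and its p-value, adjusted over all genes by Benjamini-Hochberg. A gene was called when the adjusted p was under 0.05. The standard error (SE) and the 95% interval of each fold change were derived from its t. The mean level was turned into an implied number of reads, the reads per library that would give this level at the geometric mean library size of 18409903 fragments. These implied reads are approximate group means on a log scale, and the value of each single library, and with it whether the groups overlap, was not analysed here. Of all genes, 13773 had a mean of at least 10 implied reads.

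Of the 41 genes, 33 had a mean of at least 10 implied reads in these melanoma cells, and 5 differed between the oils. IFIT1, IFIT5, OAS2 and USP18 were lower in OZO and ISG20 was higher. In bulk RNA of this kind, fewer cells that carry a transcript and less RNA per cell cannot be told apart. These 5 are 12.2% of the 41, where 7.04% of all 28395 genes were called, 3.98% higher and 3.06% lower. Among genes with at least 10 reads, the 4 lower members are 12.1% of 33 beside 5.89% of the 13773 genes, and the 1 higher member is 3.03% beside 7.75%. With the adjustment made over these 13773 genes alone the same 5 members were called, and the 12.1% lower and 3.03% higher then stand beside 9.48% and 11.1% of genes. At an unadjusted p under 0.05, 8 of the 33 (24.2%) were lower, beside 17.6% of genes, and 1 was higher, beside 18.0%.

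The median log2 fold change was -0.13 over the 41 members and also -0.13 over the 33 with at least 10 reads. It was 0.19 over all genes and -0.01 over all genes with at least 10 reads. The positive median of all genes goes with 7012 genes without a read in any library, which share 1 log2 fold change of 0.33. Centring the fold changes on that median turned the split over all genes from 1131 higher and 868 lower to 634 higher and 2481 lower. Under it 6 members were called, all lower: the 4 above with OAS3 and SAMD9, and ISG20 no longer passed. Of the 33 members, 21 (63.6%) had a fold change below 0, beside 50.8% of genes with at least 10 reads. The 28 of them that were not called had a median log2 fold change of -0.03. Their values lay between -1.03 for IFIT2 and 0.84 for IFI44L.

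**Figure D1:**
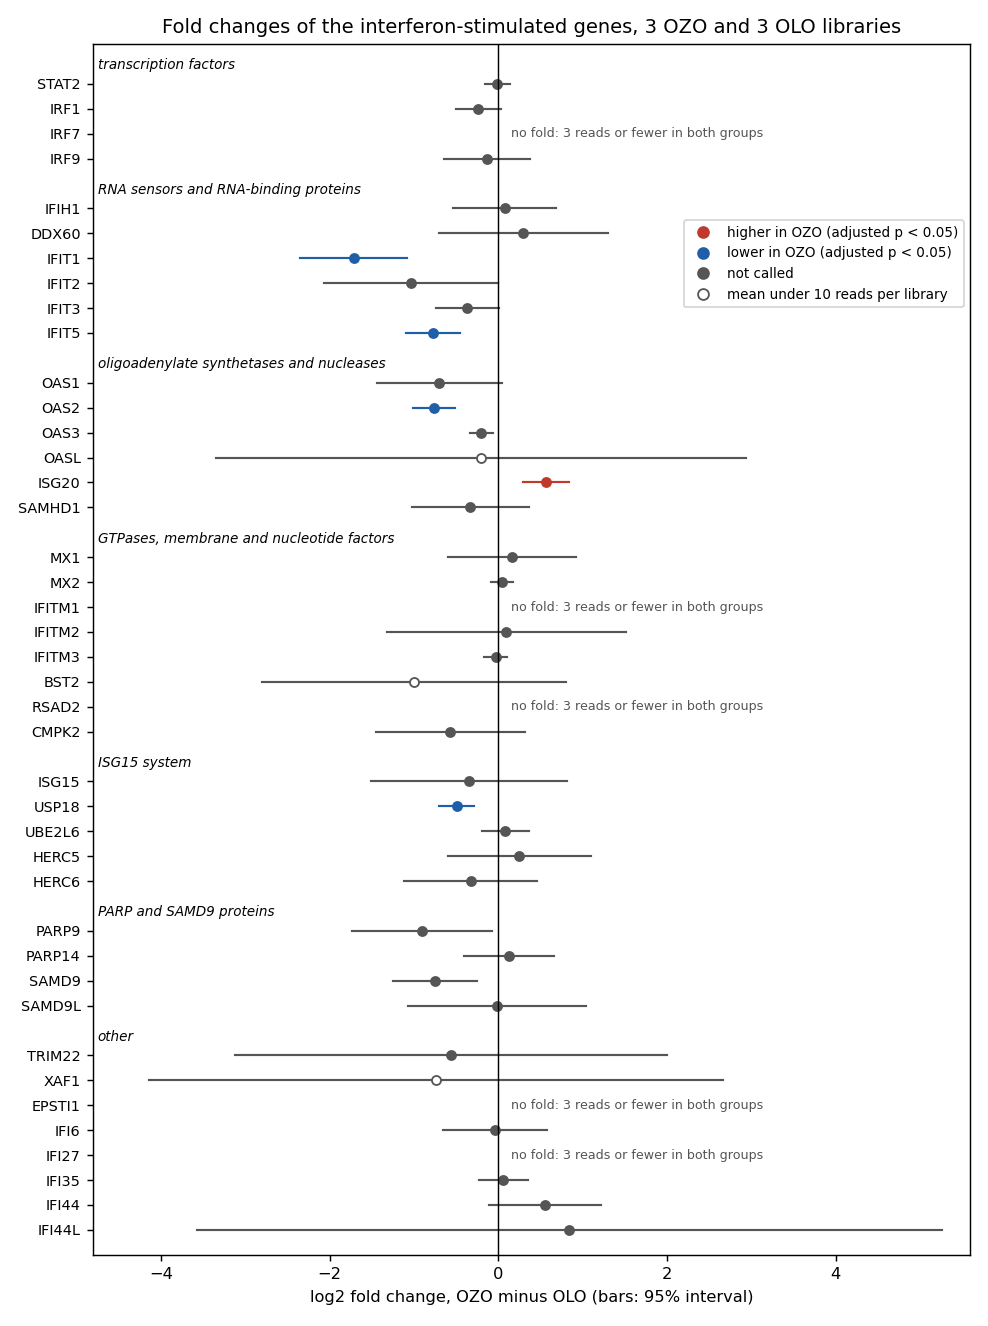
Log2 fold change of the interferon-stimulated genes by role, OZO minus OLO, with bars for the 95% interval and open circles for a mean under 10 implied reads. Fold changes are drawn for 36 genes, and 5 with 3 implied reads or fewer in both groups are marked as without one. IFIT1, IFIT5, OAS2 and USP18 lie to the left of 0 in blue and ISG20 to the right in red.

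The promoter sequences of 5 members are given because they hold the letters of the ISRE core, the element ISGF3 is known to bind: the called genes IFIT1, IFIT5 and ISG20, their uncalled neighbour IFIT3, and IFITM3, which had the highest level per length. Each run holds the 250 bases before the RefSeq start site, 5′ to 3′ on the gene's strand, in GRCh38.p14. Capitals mark the ISRE core GAAANNGAA or, on the other strand, its reverse complement.
IFIT1: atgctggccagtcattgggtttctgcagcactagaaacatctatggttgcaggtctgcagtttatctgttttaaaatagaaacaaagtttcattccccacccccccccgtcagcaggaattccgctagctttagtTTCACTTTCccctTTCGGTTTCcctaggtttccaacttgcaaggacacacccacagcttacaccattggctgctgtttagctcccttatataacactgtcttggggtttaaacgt
IFIT3: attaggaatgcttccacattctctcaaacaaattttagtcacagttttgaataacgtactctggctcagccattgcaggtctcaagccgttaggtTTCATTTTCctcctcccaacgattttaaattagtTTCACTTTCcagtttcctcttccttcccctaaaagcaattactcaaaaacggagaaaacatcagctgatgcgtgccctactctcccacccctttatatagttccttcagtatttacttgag
IFIT5: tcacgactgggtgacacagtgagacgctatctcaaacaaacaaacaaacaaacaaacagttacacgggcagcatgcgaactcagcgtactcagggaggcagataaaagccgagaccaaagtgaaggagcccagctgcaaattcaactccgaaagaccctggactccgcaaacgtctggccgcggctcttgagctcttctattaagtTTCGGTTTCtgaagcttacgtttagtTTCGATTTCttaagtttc
ISG20: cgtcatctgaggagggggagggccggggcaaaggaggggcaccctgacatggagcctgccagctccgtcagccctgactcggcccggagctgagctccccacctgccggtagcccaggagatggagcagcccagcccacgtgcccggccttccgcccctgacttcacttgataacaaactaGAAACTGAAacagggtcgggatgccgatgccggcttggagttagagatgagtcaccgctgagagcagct
IFITM3: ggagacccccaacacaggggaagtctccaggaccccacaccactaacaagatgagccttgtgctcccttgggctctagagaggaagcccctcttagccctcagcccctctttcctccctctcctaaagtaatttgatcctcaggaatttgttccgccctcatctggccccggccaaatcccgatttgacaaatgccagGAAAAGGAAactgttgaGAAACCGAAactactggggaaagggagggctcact
The IFIT1 window is chr10:89392373-89392622 on the plus strand, with cores 115 to 107 and 102 to 94 bases before the start. The IFIT3 window is chr10:89327747-89327996, plus strand, with cores 155 to 147 and 121 to 113 bases before the start. The IFIT5 window is chr10:89414318-89414567, plus strand, with cores 44 to 36 and 18 to 10 bases before the start. The ISG20 window is chr15:88638766-88639015, plus strand, with 1 core 69 to 61 bases before a start that lies inside the RefSeq span of the gene. The IFITM3 window is chr11:320861-321110, minus strand, with cores 52 to 44 and 35 to 27 bases before the start. IFIT1 and IFITM3, whose windows hold 2 cores each, stood apart in value: IFIT1 was called lower, and IFITM3 had a log2 fold change of -0.03. The difference between them was not tested.

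RefSeq windows (250 bases before to 50 after the start) were matched for 33 of the 41 members. The others were IFIT2, OAS2, USP18, IRF7, IFITM2, MX2, OASL and TRIM22. The letters GAAANNGAA, searched on both strands, stood in 21 of the 33 windows (63.6%), beside 8.29% of the 27305 windows of all genes and 6.40% of the 10835 windows of genes with at least 10 reads. The core of the gamma-activated site, TTCNNNGAA, stood in 10 of 33 (30.3%), beside 7.88% and 6.59%, and an ISRE and a gamma-activated core overlapped in 4 of the member windows. The GC-box GGGGCGG, searched for comparison, stood in 11 of 33 (33.3%), beside 30.7% and 50%. Of the 16 members with at least 10 reads and an ISRE core, 2 were called lower and 1 higher, 8 had a fold change below 0, and the median log2 fold change was 0.02. Of the 11 such members without the core, 0 were called (limma), 1 (PARP9) had an unadjusted p under 0.05, 9 had a fold change below 0, and the median was -0.24. No test was made of the difference between these groups, and a match of letters is not a bound site.

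The transcription factors that drive the family were not called. STAT2, the STAT subunit particular to ISGF3, stood at 744 implied reads per library in OLO and 738 in OZO, a log2 fold change of -0.01 (SE 0.06, n = 3 libraries per group, 95% interval -0.16 to 0.14, adjusted p = 0.893). IRF9, the DNA-binding subunit of ISGF3, stood at 72.7 and 66.4 implied reads, a log2 fold change of -0.13 (SE 0.20, interval -0.64 to 0.38, adjusted p = 0.69). The intervals of STAT2 and IRF9 lie within 1 log2 unit of 0. IRF1, which binds the same element without a STAT partner, stood at 269.5 and 229 implied reads, a log2 fold change of -0.24 (SE 0.10, interval -0.50 to 0.03, adjusted p = 0.249). IRF7, the factor that amplifies interferon alpha production, had 1.13 implied reads in OLO and 2.24 in OZO, at or under the floor of 3 reads in both groups, so no fold is given.

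The IFIT proteins bind viral RNA and hold back its translation, and IFIT1 had the largest fold change of the 33 genes. Their 4 genes lie together on chromosome 10, in GRCh38 chr10:89302046-89420997, a span of 119.0 kb. IFIT1, which recognises RNA caps that lack a methyl group, fell from 131 implied reads in OLO to 39.6 in OZO. This is a log2 fold change of -1.71 (SE 0.25, n = 3 per group, 95% interval -2.35 to -1.08), 3.28-fold lower, with an adjusted p of 0.0252 by limma. IFIT5, which binds RNA with a 5′ phosphate, fell from 1312 to 768 implied reads, a log2 fold change of -0.77 (SE 0.12, interval -1.09 to -0.45, 1.71-fold lower, adjusted p = 0.0319). The neighbours also differed in mean level over the OLO and OZO libraries together: on the log2 CPM per kilobase scale IFIT5 stood at 3.76 and IFIT1 at -0.13.

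The other IFIT genes had values on the same side of 0 and were not called. IFIT2 had 135 implied reads in OLO and 65.6 in OZO, a log2 fold change of -1.03 (SE 0.40, interval -2.06 to -0.01, adjusted p = 0.249 over all genes and 0.139 over those with at least 10 reads). IFIT3, which binds IFIT1 and stabilises it, had 351 and 272 implied reads, a log2 fold change of -0.37 (adjusted p = 0.249). The span of LIPA, a lysosomal lipase gene on the opposite strand, covers IFIT2, IFIT3 and IFIT1 and reaches into IFIT5. The paper names a directional library kit, but the use of strand in counting is not stated. Reads of LIPA and of the IFIT genes therefore cannot be told apart with certainty. The overlap is one of gene spans, and an overlap of exons was not examined. LIPA itself had 1134 implied reads in OLO and 1087 in OZO, a log2 fold change of -0.06 (adjusted p = 0.708). IFIH1 (MDA5, the sensor of long double-stranded RNA) had a log2 fold change of 0.08 (interval -0.54 to 0.69) and the helicase DDX60 one of 0.30 (interval -0.71 to 1.30), and neither was called.

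**Figure D2:**
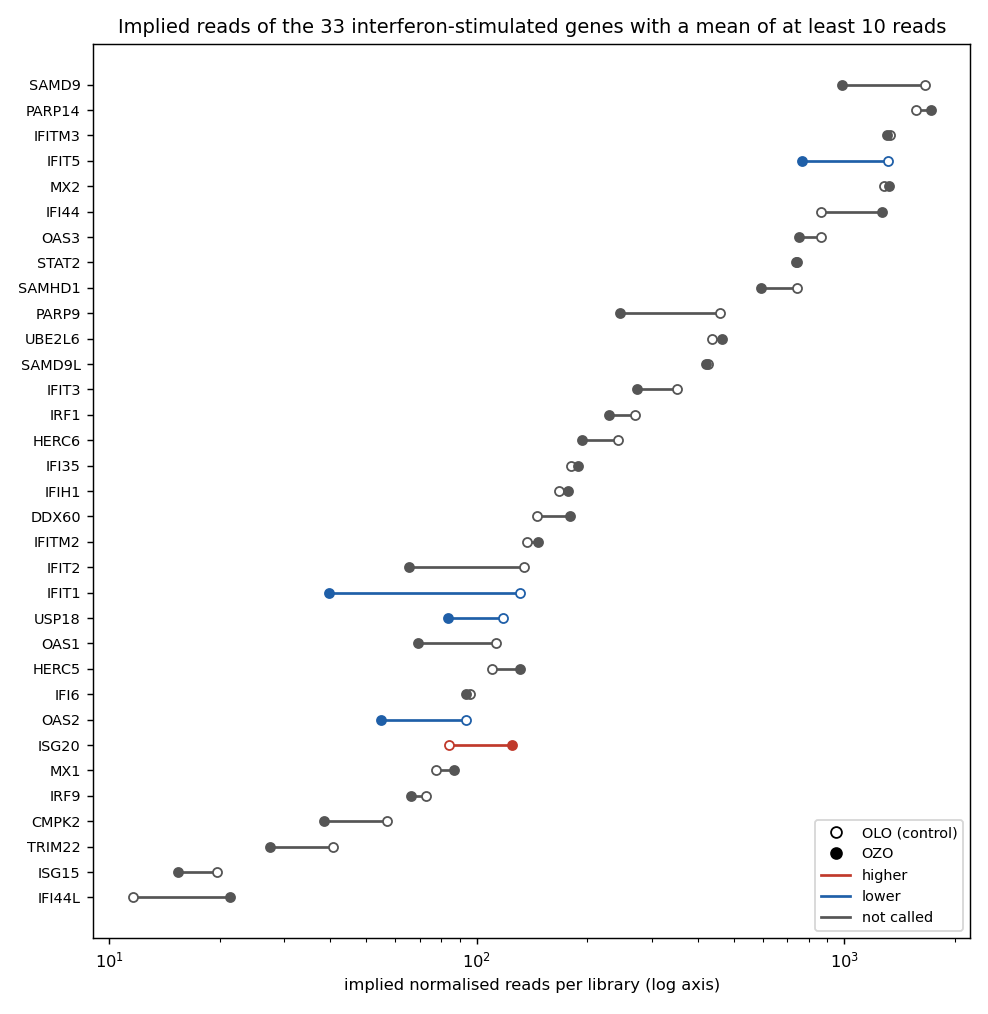
Implied normalised reads per library on a log axis for the 33 genes that average 10 or more, OLO as open and OZO as filled circles joined by a line, ordered by the OLO value. The gap is widest for IFIT1, from 131 to 39.6, while STAT2 and IFITM3 have circles that nearly coincide.

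The oligoadenylate synthetases make the 2′-5′-linked second messenger that activates RNase L, and OAS1, OAS3 and OAS2 lie side by side within 104.8 kb of chromosome 12. OAS2 (chr12:112978519-113011723) fell from 93.5 to 55.0 implied reads, a log2 fold change of -0.76 (SE 0.10, n = 3 per group, interval -1.01 to -0.51, 1.69-fold lower, adjusted p = 0.018). Its neighbours were not called and had values on the same side. OAS1 had 113 and 69.4 implied reads, a log2 fold change of -0.70 (interval -1.44 to 0.04, adjusted p = 0.249). OAS3, the deepest read of them, had 863 and 751, a log2 fold change of -0.20 with a narrow interval of -0.34 to -0.07 (adjusted p = 0.107 over all genes, 0.0561 over those with at least 10 reads). OASL, which acts on RIG-I signalling and makes no messenger, had 6.16 reads on average and an interval from -3.34 to 2.94.

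ISG20, at chr15:88635632-88656483, was the 1 member called higher. It encodes an exonuclease that degrades single-stranded RNA, and its log2 fold change was 0.56 (SE 0.11, n = 3 per group, interval 0.29 to 0.84, adjusted p = 0.0467), from 84.0 implied reads in OLO to 124.5 in OZO, 1.48-fold higher. The call was close to the threshold, and it was lost at a log2 fold change of 0.38 once the all-gene median was subtracted from each fold change. That median includes the genes without a read. With centring on the median of genes with at least 10 reads the call was kept, at a log2 fold change of 0.57. SAMHD1, which hydrolyses deoxynucleotides, had 744 and 592 implied reads, a log2 fold change of -0.33 (adjusted p = 0.425).

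The ISG15 system attaches the ubiquitin-like protein ISG15 to other proteins and takes it off again. USP18 (chr22:18150170-18177397), which removes ISG15 and also holds back signalling at IFNAR2, fell from 118 to 83.6 implied reads, a log2 fold change of -0.49 (SE 0.08, n = 3 per group, interval -0.71 to -0.28, 1.41-fold lower, adjusted p = 0.0339). The listed members with a part in conjugation, which do not cover every step of it, were not called. UBE2L6, the conjugating enzyme, had 438 and 464 implied reads and a log2 fold change of 0.08 (interval -0.20 to 0.37). The ligase HERC5 had a log2 fold change of 0.25 (adjusted p = 0.641) and its neighbour HERC6 one of -0.33 (adjusted p = 0.488). ISG15 itself was thinly read, with 19.7 implied reads in OLO and 15.4 in OZO, and its interval ran from -1.50 to 0.81.

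Among the GTPases, membrane proteins and nucleotide enzymes, 0 of 8 were called by limma, and 0 had an unadjusted p under 0.05. MX2, a GTPase that acts on nuclear entry of viruses, had 1283 and 1320 implied reads, a log2 fold change of 0.04 with an interval of -0.09 to 0.17. IFITM3, which blocks fusion of virions in endosomes, had 1332 and 1305, a log2 fold change of -0.03 with an interval of -0.17 to 0.11. Both intervals are among the narrowest of the family. The other members of the group were less precise. MX1 had a log2 fold change of 0.16 (interval -0.60 to 0.92), IFITM2 one of 0.10 (interval -1.32 to 1.52) and CMPK2, a mitochondrial nucleotide kinase, one of -0.57 (interval -1.45 to 0.32). IFITM1 and RSAD2 (viperin) were at or under 3 implied reads in both groups. BST2 (tetherin), with 3.17 implied reads in OLO and 1.34 in OZO, was at least 1.05-fold lower against the floor in its point estimate only. Its interval ran from -2.80 to 0.80 on the log2 scale, and it was not called.

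PARP9 and PARP14 lie within 202.9 kb of chromosome 3, with DTX3L reaching into the gap between them, and SAMD9 and SAMD9L within 48.9 kb of chromosome 7. PARP9, a partner of the ubiquitin ligase DTX3L, had 458 implied reads in OLO and 245 in OZO, a log2 fold change of -0.90 (SE 0.32, interval -1.73 to -0.08, adjusted p = 0.214). PARP14, an ADP-ribosyltransferase, had 1570 and 1717, a log2 fold change of 0.13 (interval -0.40 to 0.66). DTX3L overlaps PARP9 at its start, and had a log2 fold change of -0.17 (adjusted p = 0.678). SAMD9, a growth-restraining antiviral factor, had 1663 and 988.5 implied reads, a log2 fold change of -0.75 (interval -1.25 to -0.25, adjusted p = 0.105 over all genes and 0.0553 over those with at least 10 reads). SAMD9L, its paralogue, had 427 and 422, a log2 fold change of -0.02 (interval -1.07 to 1.04). The difference between the genes of a pair was not tested.

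Of the 8 remaining members 0 were called by limma, and 1 (EPSTI1) had an unadjusted p under 0.05. IFI44 had 863 implied reads in OLO and 1270 in OZO, a log2 fold change of 0.56 (interval -0.11 to 1.22, adjusted p = 0.249), and its neighbour IFI44L 11.6 and 21.3, a log2 fold change of 0.84 (SE 1.72, interval -3.57 to 5.26, adjusted p = 0.776). The interval of IFI44L spans changes of many-fold both ways, the widest among the 33 genes. IFI6, a mitochondrial survival factor, had a log2 fold change of -0.04 (interval -0.65 to 0.57), IFI35 one of 0.06 (interval -0.22 to 0.35) and TRIM22, an antiviral ubiquitin ligase, one of -0.56 (interval -3.12 to 2.0). XAF1, with 3.84 and 2.11 implied reads, was at least 1.24-fold lower against the floor in its point estimate only. Its interval ran from -4.14 to 2.67 on the log2 scale, and it was not called. EPSTI1 was under the floor in both groups, and IFI27 had no read in any library, where a count of 0 allows up to 3 reads, for counting error only.

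The precision differed widely between members. The whole 95% interval lay within 1 log2 unit of 0 for 15 of the 33 genes, among them STAT2, IRF1, IRF9, MX2, IFITM3 and UBE2L6. For 7 of the 33 it was wider than 2 log2 units: DDX60, IFI44L, IFIT2, IFITM2, ISG15, SAMD9L and TRIM22. Each of these intervals includes a change of 2-fold or more in at least 1 direction. The adjusted p of 0.249 that IFI44, IFIT2, IFIT3, IRF1 and OAS1 share is not a sign of like evidence, since the adjustment gives that value to 9616 genes, the unread ones included.

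**Figure D3:**
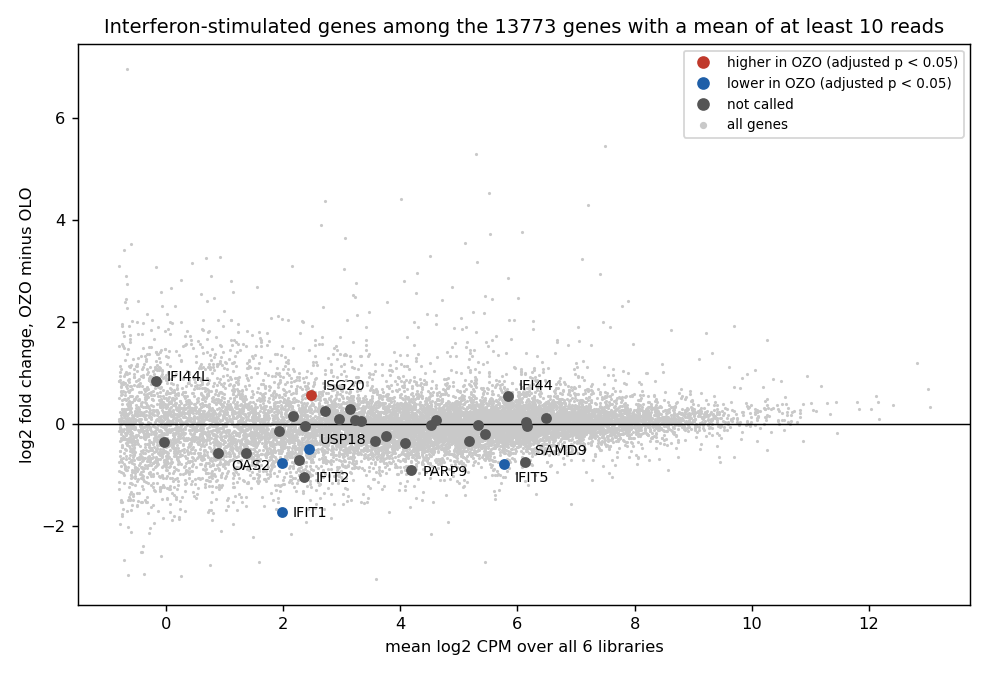
Log2 fold change (OZO minus OLO) against mean log2 CPM (read counts scaled to library size) over the 6 libraries, with the 33 interferon-stimulated genes of at least 10 implied reads drawn over the 13773 genes of that depth in grey. The members lie on both sides of 0, with IFIT1 the lowest at -1.71, and none is as far from 0 as the most changed genes, which reach 6.94.

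The mean level of the family, taken over the OLO and OZO libraries together, was uneven. On the scale of log2 CPM per kilobase of transcript, IFITM3 had the highest mean level at 6.87, above 96.2% of genes with at least 10 reads. IFI44 followed at 5.08, then MX2 at 4.38, UBE2L6 at 4.33, IFIT5 at 3.76 and PARP14 at 3.54. The called genes were spread over this order: ISG20 stood at 1.82, USP18 at 1.54, IFIT1 at -0.13 and OAS2 at -0.24. The spread between libraries of a level was not analysed, so neighbours in the order such as MX2 and UBE2L6 cannot be ranked.

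**Figure D4:**
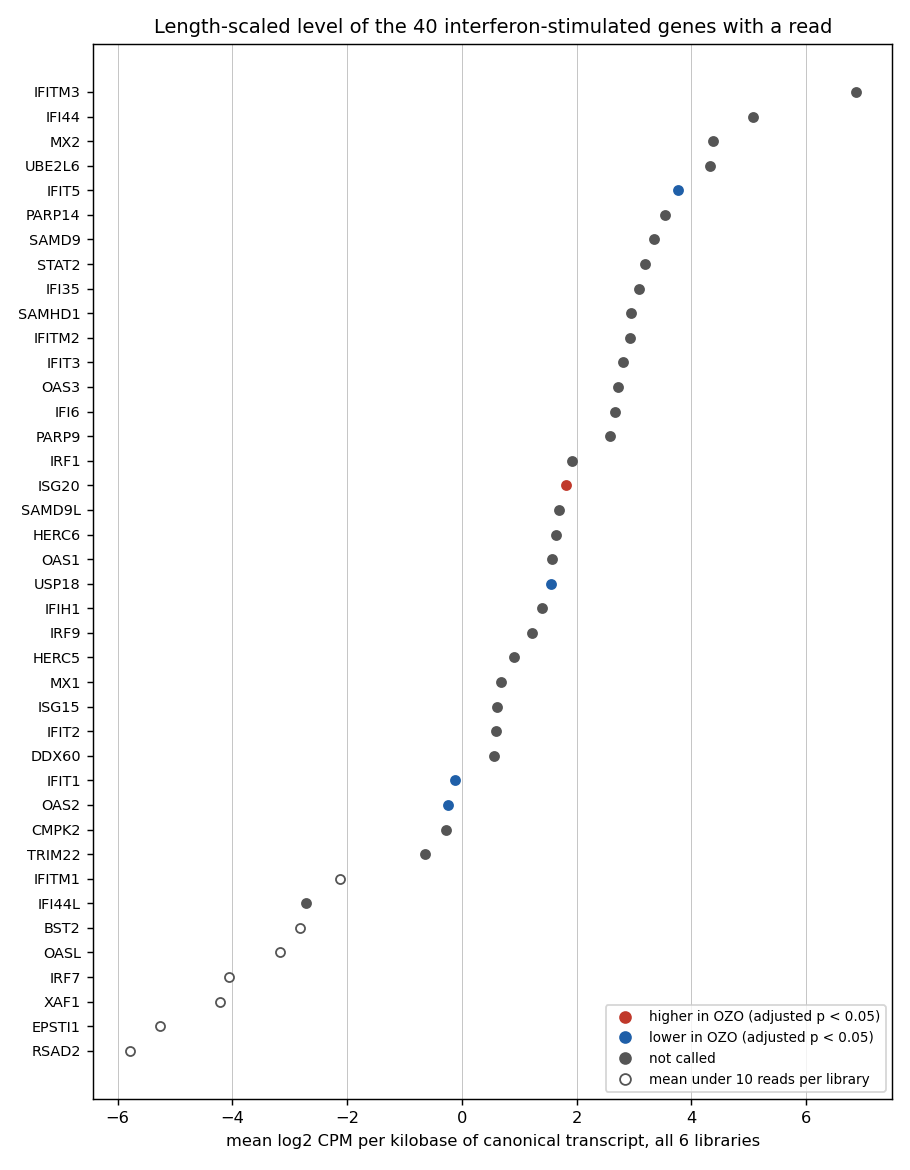
Mean level of 40 interferon-stimulated genes in log2 CPM per kilobase of canonical transcript over all 6 libraries, with open circles for a mean under 10 implied reads. IFITM3 stands apart at 6.87, and the genes called lower in blue lie between 3.76 for IFIT5 and -0.24 for OAS2.

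Genes around the family were taken from 5 lists of 46 genes chosen by pathway role. Of the 10 interferon genes 0 were called by limma and 1 had an unadjusted p under 0.05, and the same gene, IFNE, was the 1 with at least 10 reads. IFNE, an epithelial type I interferon named after its values were seen, had 34.0 implied reads in OLO and 50.3 in OZO, a log2 fold change of 0.56 (interval 0.09 to 1.02, adjusted p = 0.173). IFNB1, the interferon that most cells make first, had 0 implied reads in OLO and 0.46 in OZO, under the floor in both groups. Of the 10 receptor and signalling genes 0 were called and 2 had an unadjusted p under 0.05, IFNAR2 and TYK2. IFNAR1 had 1573 and 1658 implied reads, a log2 fold change of 0.08 (interval -0.05 to 0.20, adjusted p = 0.323). IFNAR2 had 234 and 154, a log2 fold change of -0.60 (interval -1.03 to -0.17, adjusted p = 0.122). The kinase genes had smaller values: JAK1 -0.12 (adjusted p = 0.393) and TYK2 0.19 (adjusted p = 0.138) on the log2 scale.

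Of the 10 genes of the nucleic acid sensing pathway upstream of interferon, 1 was called, beside 7.04% of all genes in either direction. Among the 9 of them with at least 10 reads, 1 was called lower and 0 higher. Of all genes of that depth 5.89% were called lower and 7.75% higher, so the count of called sensing genes does not stand out. MAVS, the mitochondrial adaptor through which RIG-I and MDA5 signal, fell from 2130 to 1461 implied reads, a log2 fold change of -0.54 (SE 0.02, n = 3 per group, interval -0.59 to -0.50, 1.46-fold lower, adjusted p = 0.00163). TBK1, the kinase downstream of MAVS, had 2400 and 3150 implied reads, a log2 fold change of 0.39. Named after its value was seen, it missed the threshold with an adjusted p of 0.0504 over all genes and passed it with 0.026 over those with at least 10 reads. Of the 6 negative regulators 2 were called, both higher, beside 3.98% of all genes called higher. Among the 5 regulators with at least 10 reads 1 was called higher, beside 7.75% of genes of that depth. SOCS3, which blocks JAK kinases at cytokine receptors, rose from 208 to 457 implied reads, a log2 fold change of 1.14 (SE 0.10, interval 0.87 to 1.40, 2.20-fold higher, adjusted p = 0.01). SOCS1, which blocks JAK kinases downstream of the interferon receptors, rose from 3.01 to 18.8 implied reads, a log2 fold change of 2.46 (SE 0.40, interval 1.43 to 3.48, adjusted p = 0.0336), and with a mean of 7.72 reads its OLO level is barely above the floor. In the negative regulators the median log2 fold change was 0.24, in the receptor and signalling genes 0.01 and in the genes of the sensing pathway -0.14. Of the 10 antigen presentation genes 0 were called by limma and 2 had an unadjusted p under 0.05, B2M at 0.21 and CIITA at -1.34 on the log2 scale. For 5 of these 10 the mean was under 10 reads, all in the major histocompatibility complex window, where 2 of 166 protein-coding genes reached 10 reads, so their values are not taken as expression levels and the count rests on the other 5.

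**Figure D5:**
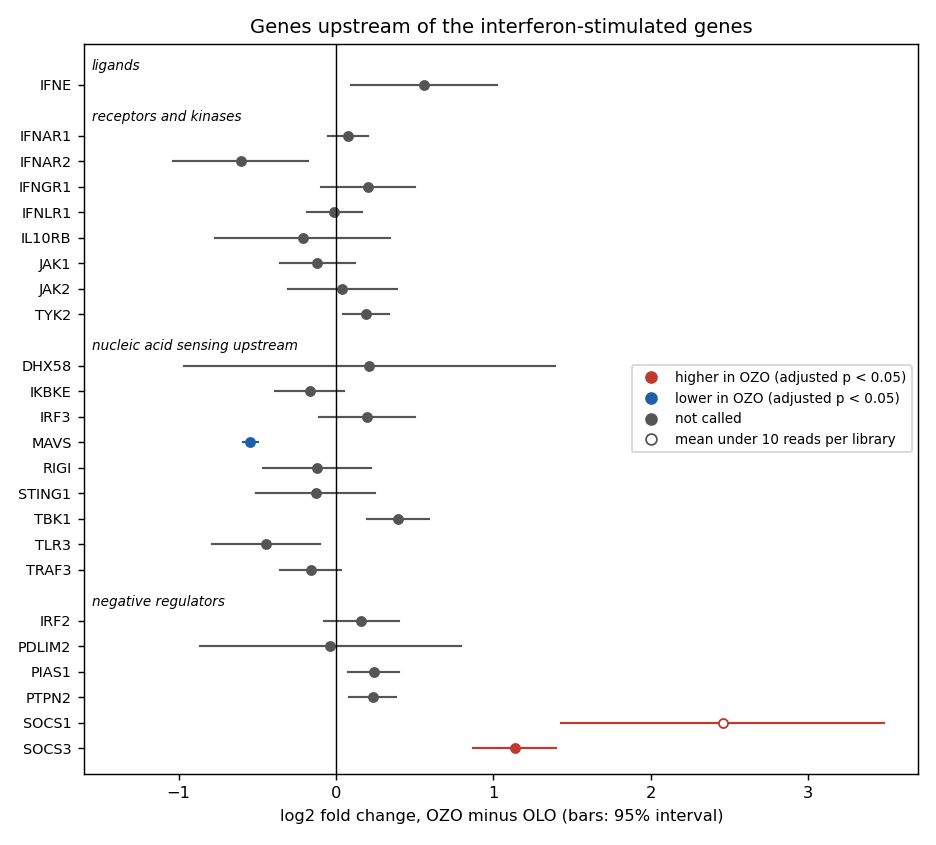
Log2 fold change (OZO minus OLO) with the 95% interval for 24 interferon, receptor, kinase, sensing-pathway and negative-regulator genes. All but SOCS1 (open circle) have a mean of at least 10 implied reads. SOCS1 at 2.46 and SOCS3 at 1.14 lie to the right in red, MAVS at -0.54 to the left in blue, and the others were not called.

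The cell type was checked against its markers. Of 6 melanocyte markers 4 had at least 10 reads (SOX10 919, MITF 499, S100B 51.0 and MLANA 36.6 on average), while the pigment genes PMEL, at 5.75 reads, and TYR, at 0, were at or near none. The summed implied reads of these markers were 1899 in OLO and 1224 in OZO. SOX10 made up most of this difference, at 1265 and 667, while MLANA went the other way, at 28.6 and 46.8. Of the 6 markers 0 were called (limma), nor did any have an unadjusted p under 0.05. Leukocyte markers were low: 1 of 5 (CD14) had at least 10 reads, and the sums were 21.4 and 16.1. Keratinocyte markers summed to 83.4 and 81.2 and endothelial markers to 23.9 and 17.3 implied reads, with 1 marker of each list at 10 reads or more. By limma 0 markers of the leukocyte, keratinocyte and endothelial lists were called, and 0 had an unadjusted p under 0.05. The part of the melanocyte markers in the results was not tested.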

How the data were processed

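RNA was sequenced from A375 cells (3 OLO and 3 OZO libraries, 0.01%, 6 h, grouped by GEO's labels). Per the study's methods and the submitters' processing notes, the authors used HISAT2 2.1.0 for alignment to hg38, featureCounts 2.1.1 for counting and limma-voom 3.58.1 for the comparison. The strand setting in counting, the low-count filter and the normalization factors are not given in the sources used here.

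Per gene, the deposited table gives a log2 fold change and a log2 CPM averaged over the libraries, with 0.5 added to each count. It also gives a deposited score, the moderated t of limma, and the deposited p-value of that t with its Benjamini-Hochberg adjustment. These columns are the authors' own comparison and were taken as the measurement, since values per library were not analysed here. No test across libraries was run. The direction, OZO minus OLO, follows the comparison's name.

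The SE was the fold change divided by t, and the degrees of freedom (5.02 to 5.24) were solved from t and p. Since voom adds 0.5, 100% of 12300 low genes fell on a whole odd product of counts within a tolerance of 0.02. This set the level of a gene without reads and the geometric mean library size of 18409903. Library sizes of single libraries were not recovered, and implied reads carry counting error beside the spread in the SE. A group at 3 implied reads or fewer was at the floor, and a fold against it is a bound of the point estimate only, without its spread. Adjusted p-values were recomputed over genes with a mean of at least 10 or 1 reads, and fold changes were centred on medians. The scripts were tested on simulated data (Python 3.11.15, pandas 2.3.3, numpy 2.4.6, scipy 1.17.1).

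The 41 members, their roles and the lists around them were chosen with earlier results of these data known. Full statistics are given for STAT2, IRF1, IRF7 and IRF9, for each called member and for the 6 of the largest fold change with at least 10 reads. From the other lists IFNB1, IFNAR1, IFNAR2, JAK1, TYK2 and each called gene are named, and other genes only where a count of 5 or fewer is spelled out. A listed gene of the signalling group and a listed marker are counted and not reported here. Coordinates and promoter windows are RefSeq on GRCh38.p14, counted from 1, and transcript lengths are canonical GENCODE 44. All 41 members were matched to both annotations and 33 to a promoter window.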

Additional observations from a re-analysis of the deposited data

How the results depend on the processing

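Of the 41 members 5 were called, 1 higher and 4 lower. The same 5 were called at a threshold of 0.1, with the adjustment over genes with a mean of at least 1 or 10 reads, and with centring on the median of genes with at least 10 reads. Over all genes the count went from 1999 to 3162 at the threshold of 0.1. It was 2682 and 2840 with the adjustment over genes of at least 1 and 10 reads, and 2003 with this centring. The background thus grew under the first 3 of these settings while the member count did not. At a threshold of 0.01, 0 were called by limma, 0 higher and 0 lower, beside 271 of all genes, where 9 members were lower and 1 higher at an unadjusted p under 0.05. When a 2-fold minimum was added 1 was called, 0 higher and 1 lower (IFIT1), beside 512 of all genes. Centred on the median of all genes, 0 were called higher and 6 lower, 4 of them shared with the 5, beside 634 higher and 2481 lower of all genes. Among the 25 members with no other RefSeq gene over them, an alternative chosen after seeing the data, 3 were called, 1 higher and 2 lower (ISG20, OAS2 and USP18), which leaves out the IFIT genes by its construction. The median log2 fold change was also -0.13 under both alternatives run on it. The centring among them subtracts a median of -0.01, too small to change the sign, so it is no check of that sign. No paired analysis was possible because the deposited table holds the comparison only, with no value per library. Leaving out each replicate and other count tests were not run for that reason, so whether 1 library decides a call was not tested. Depth limits the 8 members under 10 reads.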

Other observations

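Near each thinly read member at least some protein-coding genes were read in these cells, with the smallest share near IFI27. Within 200 kb of IRF7, 13 of 22 protein-coding genes averaged 10 reads or more, near BST2 16 of 21, near IFITM1 12 of 18, near OASL 5 of 6 and near XAF1 5 of 8. RSAD2 had 2 of 2 and EPSTI1 1 of 2 such neighbours, and IFI27 had 2 of 10.

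The read depth of the listed antigen presentation genes differed by position. PSMB8, PSMB9, TAP1, TAP2 and TAPBP, the 5 of the 10 listed genes under a mean of 10 reads, had between 0 and 0.68 implied reads on average, and all 5 lie in the window around the major histocompatibility complex. In that window, whose protein-coding genes span chr6:28503296-33457544 in GRCh38, 2 of 166 protein-coding genes (1.2%) had at least 10 reads and 96 had none, beside 530 of 828 (64%) on the rest of chromosome 6. Outside it, B2M stood at 3065 reads, ERAP1 at 1894, PSMB10 at 106.5, NLRC5 at 102 and CIITA at 92.6. With so few genes of the window read, the values of PSMB8, PSMB9, TAP1, TAP2 and TAPBP are not taken here as expression levels, and the cause was not tested. These genes and this window were described after their values were seen.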
